A study of Mus musculus with 9 samples.

Results

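The 7 genes described here move iron into cells, store it and release it: Tfrc, Trf, Slc40a1, Slc11a2, Fth1, Ftl1 and Hmox1. They were taken by name from the 46517 gene rows of a single-cell count table, and all 7 were found. The table covers 1235 cells from microvascular fragments of adult mouse brain, dissociated and sorted to plates of 384 wells. They were sequenced by Smart-seq2, which reads along whole transcripts and has no molecular identifiers. The sources used here give no strain, sex, treatment or number of animals. Each cell carries 1 of 9 type labels: MG (137 cells), FB (9), CP-EC (17), vEC (45), aEC (116), capilEC (787), aSMC (41), vSMC (29) and PC (54).

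Iron crosses the blood-brain barrier through endothelial cells, which take up iron-loaded transferrin from blood through the transferrin receptor and pass iron on through ferroportin. Inside a cell, iron leaves the endosome through a divalent metal transporter, excess iron is stored in ferritin shells built of heavy and light chains, and haem oxygenase frees iron from haem. When iron is scarce, the iron regulatory proteins bind a short RNA hairpin, the iron-responsive element: bound near the start of a transcript it blocks translation, and bound in the tail of the Tfrc transcript it protects the RNA from decay.

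The hairpins of the members are shown first, because the search matched 4 of the 7 genes and these are the elements the regulatory proteins are known to bind. Transcript sequences came from the GENCODE annotation on GRCm38, and a site was searched on the transcript strand as 5 stem bases, a bulged C, 5 stem bases, the loop CAGTGN with A, C or T in its last place, and both stems closing behind it, with at most 1 lower-stem pair missing. Capitals mark the bulged C and the 6 loop bases, and T stands for U. The 3′ untranslated region of Tfrc held 4 sites, and the 5′ untranslated regions of Slc40a1, Fth1 and Ftl1 held 1 site each.
Tfrc site 1, chr16:32631220-32631246, plus strand: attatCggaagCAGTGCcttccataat
Tfrc site 2, chr16:32631599-32631625, plus strand: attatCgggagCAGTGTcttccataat
Tfrc site 3, chr16:32631664-32631690, plus strand: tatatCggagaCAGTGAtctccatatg
Tfrc site 4, chr16:32631711-32631737, plus strand: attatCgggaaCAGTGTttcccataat
Slc40a1, chr1:45925466-45925492, minus strand: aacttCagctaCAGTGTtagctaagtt
Fth1, chr19:9982733-9982759, plus strand: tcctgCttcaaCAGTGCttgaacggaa
Ftl1, chr7:45459780-45459806, minus strand: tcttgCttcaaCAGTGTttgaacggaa
Such a site was found in 6 of 19549 annotated 5′ regions (0.0307%) and in 4 of 20513 3′ regions (0.0195%). The bases CAGTG alone, without a limit on the last loop base, occurred in 25.7% and 65.4% of them. The ferritin sites lie 88 bases (Fth1) and 79 bases (Ftl1) from the transcript start, and the Slc40a1 site lies 91 bases from it. The search did not match Trf, Slc11a2 or Hmox1, which says only that this pattern is not in the transcripts searched. A hairpin whose stem or loop departs from the pattern would have been missed, so these 3 genes are not shown to lack an element. The counts below are of RNA, so translation through these sites was not measured.

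The cells held 100021 to 854836 reads each, with a median of 202225, on 4 plates, read from the first part of the cell names, s169s, s480s, s482s and s483s. Each label was deposited as 1 sample with no animal named, so there are no replicates, no test was possible, and a plate is not an animal. Levels are counts per 1000000 reads of all cells of a type (CPM), plates with at least 5 cells of a type show the spread, and exact Poisson or binomial 95% intervals cover counting error only. The labels fitted their defining markers: 15 endothelial markers summed to 13633 to 19767 CPM in the 4 EC labels, 12 mural markers to 13263 to 17524 CPM in aSMC, vSMC and PC, 8 fibroblast markers to 13698 CPM in FB and 10 microglia markers to 32570 CPM in MG. Reads of other classes reached many cells: the endothelial list stood at 1154 CPM in MG, 1248 in FB, 1721 in aSMC, 4179 in vSMC and 4977 in PC. Among subtypes, 5 fenestrated markers summed to 5857 CPM in CP-EC, 8 venous ones to 6186 CPM in vEC, 10 arterial ones to 3624 CPM in aEC, 7 capillary ones to 9380 CPM in capilEC, 8 smooth muscle ones to 15052 CPM in aSMC and 6 pericyte ones to 13605 CPM in PC, with 4900 CPM of the pericyte list in FB. The arterial list was not confined to aEC, with 2714 CPM in vSMC, 1892.5 in aSMC and 1799 in PC. Nor was the capillary list confined to capilEC, with 5570 CPM in aEC and 4167 in CP-EC. In vSMC, the smooth muscle list had 5944 CPM and the pericyte list 7403 CPM. The red cell list stayed at or under 40.8 CPM in every type.

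Transferrin receptor, encoded by Tfrc (chr16:32608920-32632794, plus strand), was highest in capilEC and present in the other brain endothelial labels. It had 16.8 CPM in MG and 40.7 CPM in FB, 21.5 CPM in CP-EC, 209 CPM in vEC, 235 CPM in aEC and 778 CPM in capilEC (exact Poisson 774 to 782), with 46.3 CPM in aSMC, 83.7 CPM in vSMC and 139.5 CPM in PC. The capilEC level was 3.31 times that of aEC, the next in order. Its plate values were nevertheless wide, at 381 CPM on s169s, 1222 on s480s, 739.7 on s482s and 763 on s483s, and they overlapped the aEC range of 125 to 455 CPM. All 4 plates had Tfrc lower in aEC than in capilEC and lower in vEC than in capilEC.

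Ferroportin, the iron exporter of mammalian cells, is encoded by Slc40a1 (chr1:45908068-45926523, minus strand) and was also highest in capilEC. It had 235 CPM in MG and 72.4 CPM in FB, 95.2 CPM in CP-EC, 530.4 CPM in vEC, 299.9 CPM in aEC and 816 CPM in capilEC, with 25.3 CPM in aSMC, 40.7 CPM in vSMC and 112 CPM in PC. The brain endothelial labels and MG were thus the high ones. Of neighbours in this order, MG and PC were separated by plate (188 to 362 CPM in MG and 22.7 to 146 CPM in PC), whereas vEC and capilEC, aEC and vEC, and MG and aEC overlapped.

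**Figure D1:**
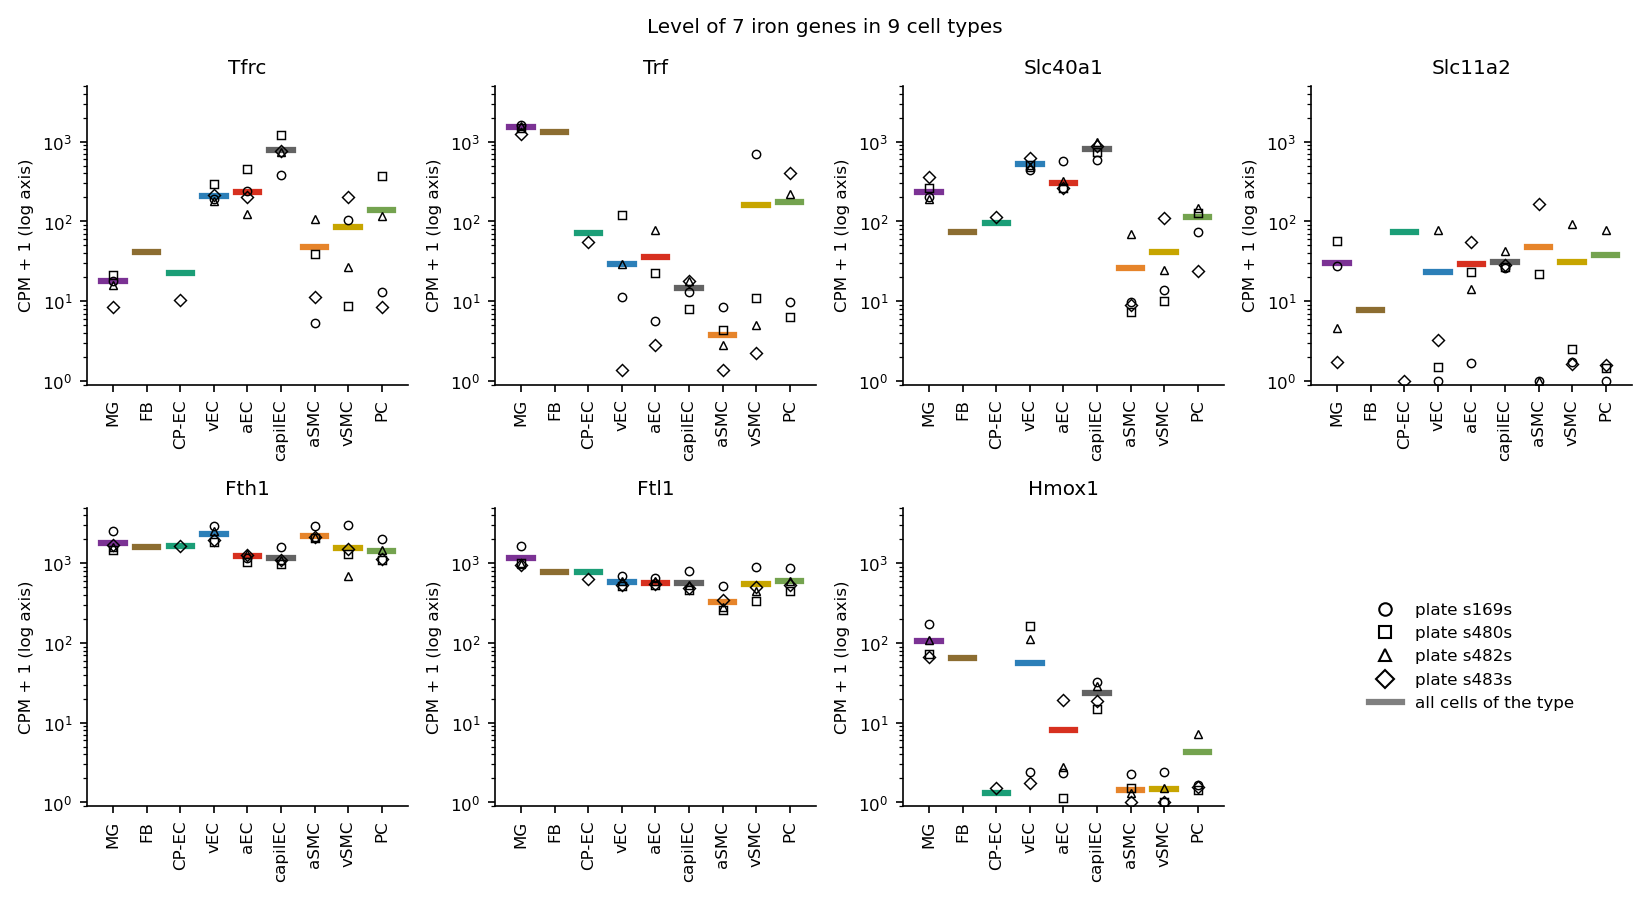
Level of each gene (CPM + 1, log axis) in the 9 types. Bars are all cells of a type and open symbols are plates with at least 5 of its cells. Tfrc and Slc40a1 are highest in capilEC at 778 and 816 CPM, Trf is highest in MG and FB at 1518 and 1309.9 CPM, and Fth1 and Ftl1 are high in every type.

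Against the mural mean (aSMC, vSMC and PC), the mean of vEC, aEC and capilEC was higher for both the receptor and the exporter. Tfrc averaged 407 CPM over the 3 endothelial types and 89.8 CPM over the 3 mural types, a log2(CPM + 5) difference of 2.12, with 2.00 to 2.62 on the 4 plates. The 3 endothelial types were unequal for Tfrc, at 778 CPM in capilEC, 235 CPM in aEC and 209 CPM in vEC, beside 139.5 CPM in PC. Plate ranges of Tfrc overlapped between vEC (178 to 291 CPM) and PC (7.57 to 372 CPM). Slc40a1 averaged 549 CPM over the endothelial and 59.3 CPM over the mural types, a difference of 3.11, with 2.84 to 3.88 by plate. These were the 2 of 5 members tested that met the size rule of at least a 4-fold difference, 50 CPM and a read in 50% of cells in the higher group, and 9.25% of all genes tested met it in that direction. Of the members, 0 were lower by the rule, where 5.82% of all genes were. Hmox1 averaged 28.5 CPM over the endothelial and 1.39 CPM over the mural types, below the rule's minimum level. The median difference of the members was 0.23, beside 0.18 for all genes tested. Tfrc was under 4-fold with DESeq2 size factors, a pseudocount of 20 CPM or cells with at least 150000 reads. Trf averaged 25.3 CPM over the endothelial and 112 CPM over the mural types, a difference of -1.94 just short of 4-fold, with -4.11 to 2.29 by plate, and it was called lower under 5 of the 15 alternatives.

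Tfrc and Slc40a1 in mural cells lay mostly in few cells. In PC, 7 of 54 cells had at least 50 CPM of Tfrc and 11 of Slc40a1, with median cells at 8.53 and 11.9 CPM. The endothelial list stood at 4977 CPM in PC, and without the 43 PC cells that carried another class's markers, the 11 PC cells that remained had 4.93 CPM of Tfrc and 14.3 CPM of Slc40a1. The endothelial minus mural differences were then larger, at 4.32 for Tfrc and 4.58 for Slc40a1. In PC, 35 cells were over the limit of the endothelial list. Leaving cells out by that list can by itself lower genes that are high in endothelial cells. The part of endothelial reads in the mural levels was not tested.

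Within capilEC, cells differed widely in both genes, with median cells at 404 CPM of Tfrc and 598 CPM of Slc40a1 and highest cells at 6009 and 5466 CPM. At least 50 CPM of Tfrc was found in 501 of 787 capilEC cells (63.7%, exact binomial 60.2 to 67.0%), and of Slc40a1 in 543 (69.0%, 65.6 to 72.2%). The share for Tfrc was 5 of 137 cells (3.65%) in MG, 20 of 45 (44.4%) in vEC and 36 of 116 in aEC. For Slc40a1 it was 48 of 137 in MG, 26 of 45 (57.8%) in vEC and 52 of 116 (44.8%) in aEC. A threshold was needed because a lone read says little: thinned to 100000 reads, 53.3% of MG cells still had a Tfrc read, at a median of 6.27 CPM per cell, and 53.1% of capilEC cells had a read of the microglial gene P2ry12, with median depths of 232674 reads in MG and 192941 in capilEC.

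**Figure D2:**
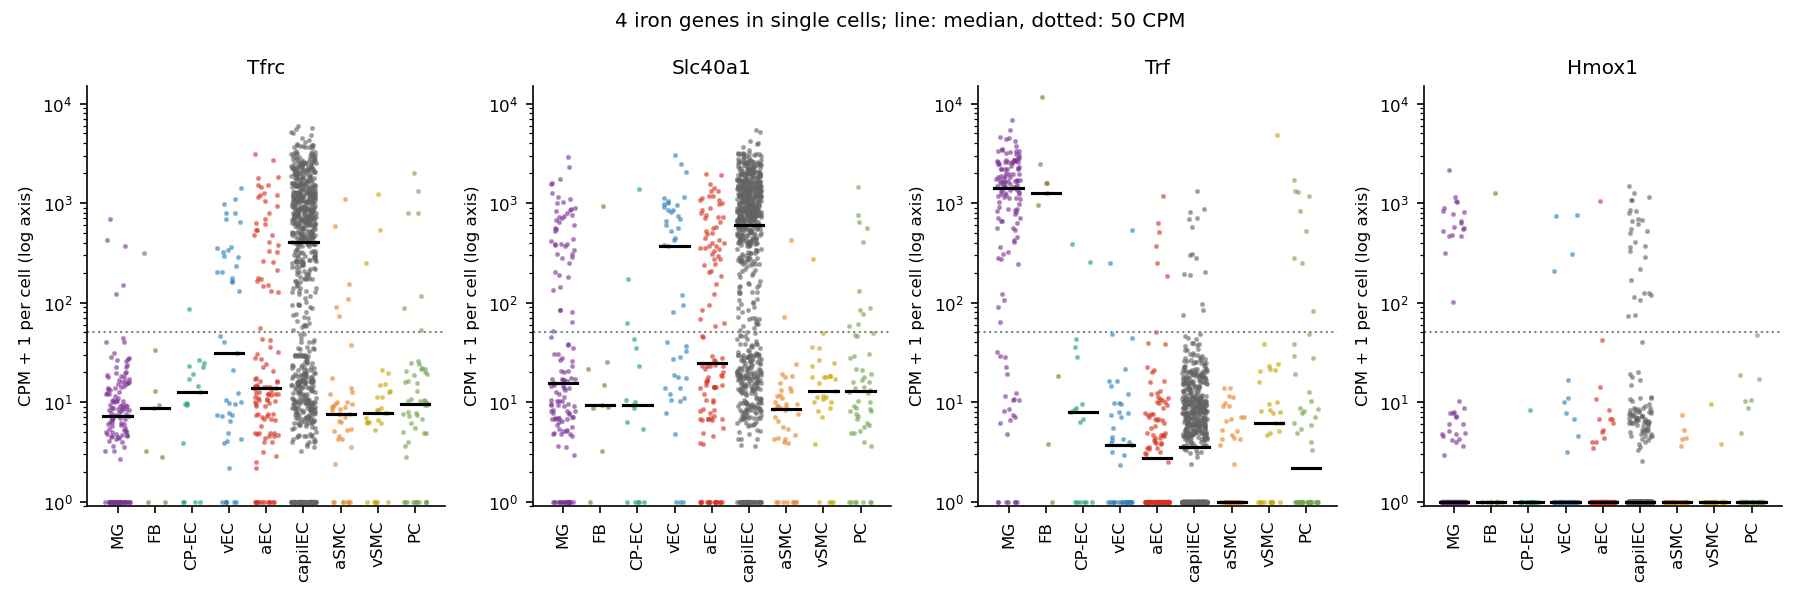
Each dot is a cell, by type, with its level of Tfrc, Slc40a1, Trf or Hmox1 (CPM + 1, log axis). Black lines are medians and the dotted line is 50 CPM. Tfrc and Slc40a1 spread widely in capilEC, Trf is high in 113 of 137 MG cells, and Hmox1 is above 50 CPM in 19 of them.

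Receptor and exporter met in the same capilEC cells more often than apart. Both genes were at 50 CPM or more in 380 capilEC cells (48.3%), Tfrc alone in 121, Slc40a1 alone in 163 and neither in 123. Slc40a1 reached 50 CPM in 75.8% of the cells with Tfrc and in 57.0% of the cells without it. On each plate the share was higher in cells with Tfrc: 54.6% against 38.9% on s169s, 81.0% against 65.5% on s480s, 87.1% against 78.0% on s482s and 75% against 68.1% on s483s. The cells with Tfrc were also read more deeply (median 206399 reads against 168422), and the part of depth was not tested. In vEC the shares were 85.0% and 36.0%, over 20 cells with and 25 cells without Tfrc, with median depths of 351398 and 220259 reads. In aEC they were 55.6% and 40%, over 36 and 80 cells, with median depths of 303624 and 228278 reads. In MG the picture was another one: 47 cells had Slc40a1 alone, 4 had Tfrc alone and 1 had both.

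**Figure D3:**
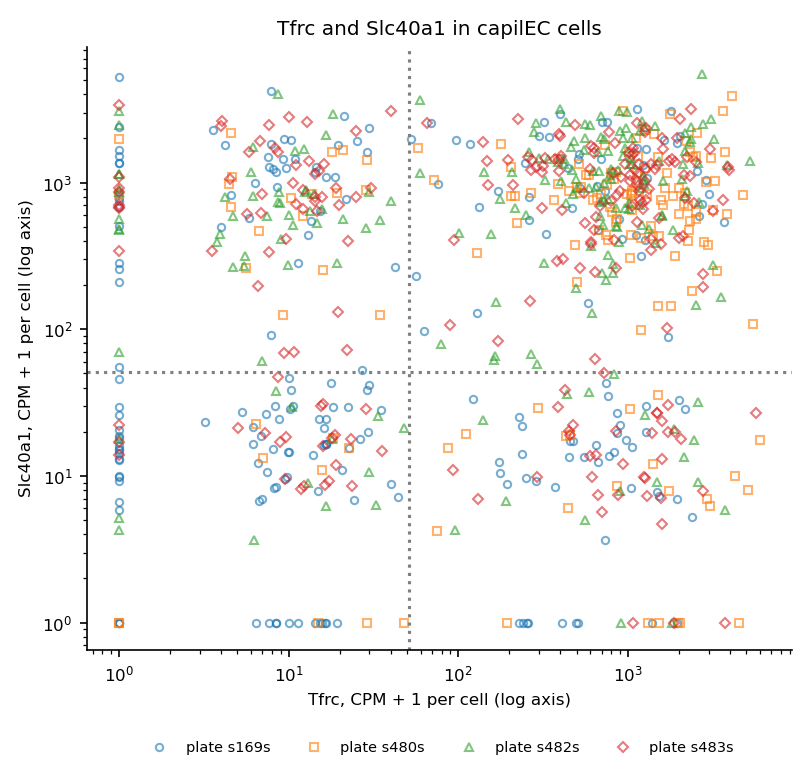
Tfrc (x axis) and Slc40a1 (y axis) in each of 787 capilEC cells, as CPM + 1 on log axes, with the plate as symbol and dotted lines at 50 CPM. The dotted lines leave 380 cells upper right, 163 upper left, 121 lower right and 123 lower left.

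Position along the capillary bed was looked at through Slc38a5, an amino acid transporter of venous-side capillaries. The 423 capilEC cells with at least 50 CPM of Slc38a5 had 952 CPM of Slc40a1, against 645 CPM in the 364 other cells. The direction was the same on all 4 plates, with 796 against 365 CPM on s169s, 821 against 654 on s480s, 1151 against 804 on s482s and 987 against 743 on s483s. Tfrc had 835 CPM against 706 CPM, with the opposite direction on s483s (758 against 771).

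Among endothelial labels, CP-EC had little of either gene. Tfrc stood at 21.5 CPM in CP-EC and 778 CPM in capilEC, a log2 difference of -4.89 (counting interval -5.22 to -4.55). Slc40a1 stood at 95.2 CPM in CP-EC and 816 CPM in capilEC, a difference of -3.04 (-3.19 to -2.88). Both met the size rule, as did 8.29% of all genes in that direction, and on s483s, the plate with 10 CP-EC cells, the differences were -5.73 and -2.93. CP-EC kept its endothelial list at 19585 CPM. Within CP-EC, 1 of 17 cells reached 50 CPM of Tfrc and 3 reached it for Slc40a1, and 1 cell gave 63.2% of the Slc40a1 reads. Trf was higher in CP-EC at 69.8 CPM than in capilEC at 13.6 CPM, a difference of 2.01 at the edge of the rule, where 2.94% of genes were called higher. It did not meet the rule in 6 of the 15 alternatives, and 2 of 17 cells reached 50 CPM; without the largest cell the CP-EC level was 39.4 CPM.

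Between vEC, aEC and capilEC, Tfrc, Slc40a1, Fth1 and Ftl1 differed by less than 4-fold. Of these 4 members tested in each of these 3 comparisons, 0 were higher or lower by the size rule. The share of all genes called was 0.771% higher and 0.499% lower for aEC over capilEC, 1.22% and 0.874% for vEC over capilEC, and 1.82% and 2.06% for vEC over aEC. Tfrc differed by -1.71 in aEC and by -1.87 in vEC relative to capilEC, each in the same direction on 4 of 4 plates. Slc40a1 differed by -1.43 in aEC (-1.75 to -0.06 by plate) and -0.62 in vEC (-1.06 to -0.41) relative to capilEC. The sign was the same on 4 of 4 plates, but the aEC difference on s169s, with 7 aEC cells, was only -0.06. The vEC difference of Tfrc passed 4-fold under TMM factors, without plate s169s or without its largest cell. Hmox1, read in too few cells for the rule, had 55.9 CPM in vEC and 7.03 CPM in aEC, a difference of 2.34. The direction was the same on 3 of 4 plates, but s169s was nearly level. The vEC and aEC levels were 163 and 0.14 CPM on s480s and 110 and 1.81 CPM on s482s. They were 1.42 and 1.32 CPM on s169s, and 0.76 and 18.1 CPM on s483s, the opposite direction. The highest cell gave 43.5% of the vEC reads and 87.7% of the aEC reads of Hmox1.

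Transferrin itself, the iron carrier of plasma and brain fluid encoded by Trf (chr9:103204001-103230444, minus strand), had another distribution. It had 1518 CPM in MG and 1309.9 CPM in FB, 69.8 CPM in CP-EC, 27.9 CPM in vEC, 34.5 CPM in aEC and 13.6 CPM in capilEC, with 2.75 CPM in aSMC, 158 CPM in vSMC and 173.5 CPM in PC. In MG the level held on every plate, at 1618 CPM on s169s, 1478 on s480s, 1564 on s482s and 1262 on s483s, and 113 of 137 cells (82.5%) had at least 50 CPM. Oligodendrocytes are the textbook source of brain transferrin, and their 10 markers summed to 197 CPM in MG. Of these, 6 were under 5 CPM, among them Mog and Opalin at 0, and the others were Cnp at 94.8, Mag at 35.5, Mal at 33.3 and Mbp at 30.5 CPM. Their part in the Trf level was not tested. The 8 border macrophage markers summed to 141 CPM in MG with none at 0, and to 153 CPM in aSMC, while the microglial gene P2ry12 reached 50 CPM in 94.2% of MG cells. MG had 15 dissociation response genes at 26005 CPM and capilEC at 2832 CPM, and the part of that response was not tested.

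In FB, Trf lay in 6 of 9 cells, at 962 to 11596 CPM, and the other 3 had 0, 2.77 and 17.1 CPM. The highest cell gave 42.8% of the reads, and without it FB had 788 CPM. An astrocyte list was present in FB: it summed to 1726 CPM, 1151 of them Slc1a3 and 423 Gja1, with Aqp4, Gfap, Slc1a2 and Aldh1l1 at 0, and 7 of 9 FB cells, among them the 6 with Trf, were above the limit of 1000 CPM for that list. Its part in the Trf level was not tested. The 2 FB cells free of other classes' markers had 6.80 CPM, and the difference from the endothelial mean described below then turns to -0.62. Choroid plexus epithelium is another known source of transferrin, and its 8 markers summed to 905 CPM in FB, with Enpp2 at 644, Kl at 127, Kcnj13 at 109, Ttr at 24.6 and Folr1 at 0.39 CPM, and Clic6, Otx2 and Prlr at 0. Their part was not tested.

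In mural cells, Trf came from few cells. PC had 9 of 54 cells (16.7%) with at least 50 CPM, the highest at 1691 CPM, and plates from 5.25 to 400.3 CPM. The choroid plexus epithelium list summed to 1079 CPM in PC with none of its 8 genes at 0, including Ttr at 194, Prlr at 133 and Folr1 at 71.4 CPM. Its part was not tested. The 11 PC cells kept after leaving out cells with markers of other classes, a step that did not use the choroid list, had 164 CPM. In vSMC, 1 cell with 4855 CPM gave 95.8% of the reads, and without it the level was 6.89 CPM.

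MG and FB were each set against the endothelial mean, which both comparisons share. Trf averaged 1518 CPM in MG and 25.3 CPM over the 3 endothelial types, a log2 difference of 5.65, with 4.77 to 6.86 by plate. Tfrc averaged 16.8 CPM in MG and 407 CPM in the endothelial mean, a difference of -4.24, with -4.98 to -3.66 by plate. Of 5 members tested, 1 was higher by the size rule, where 10.8% of all genes were, and 1 was lower, where 18.4% were. Slc40a1 at 235 CPM in MG and 549 CPM in the endothelial mean was lower on 4 of 4 plates but not by 4-fold. In FB, Trf was higher (1309.9 CPM, against 25.3 CPM in the endothelial mean; difference 5.44), and Tfrc (40.7 against 407 CPM; -3.17) and Slc40a1 (72.4 against 549 CPM; -2.84) were lower. The shares of all genes there were 9.63% higher and 16.7% lower, and the FB levels of Tfrc and Slc40a1 came for 87.5% and 89.7% from 1 cell each.

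**Figure D4:**
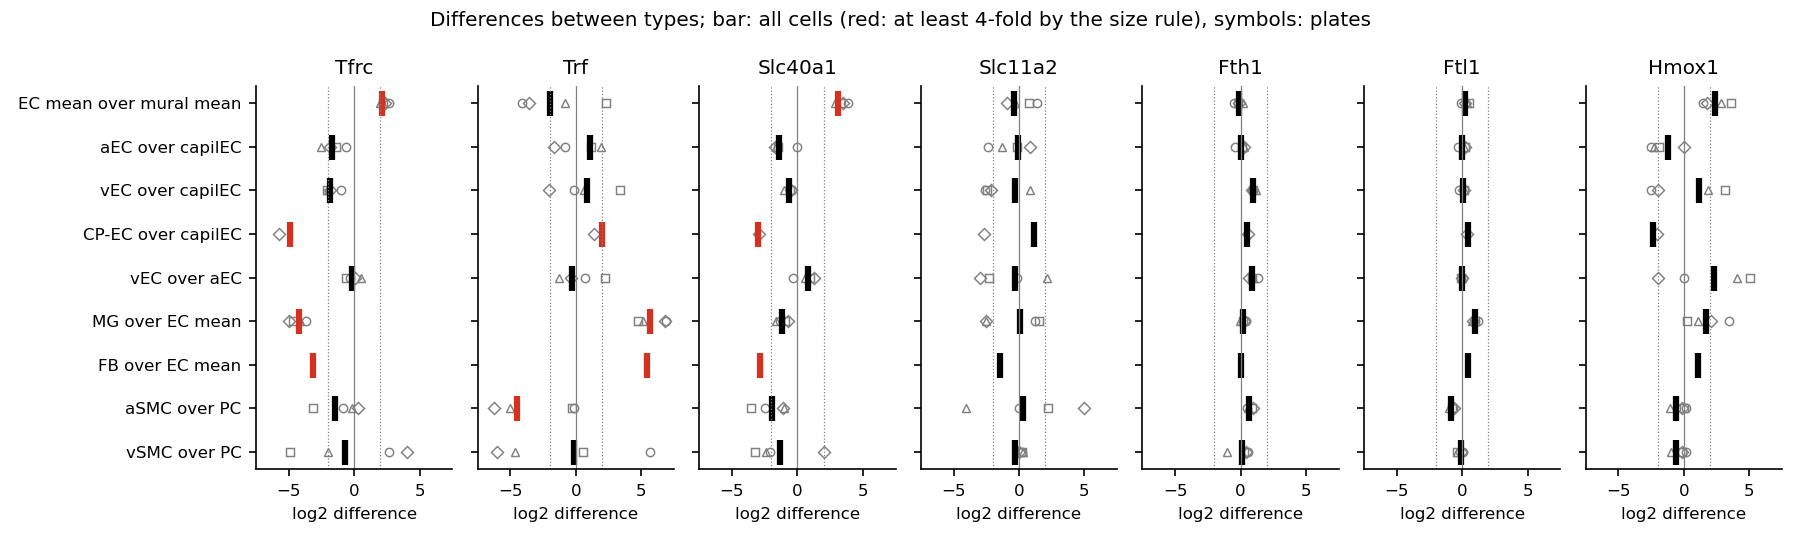
Difference of each gene in 9 comparisons, in log2(CPM + 5), the first-named group minus the second. Bars are all cells, red where the size rule is met, grey symbols are plates, and dotted lines mark 4-fold. Tfrc lies at 2.12 for the endothelial over the mural mean and at -4.24 for MG over the endothelial mean, and the Fth1 and Ftl1 bars stay within the dotted lines.

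Ferritin RNA was abundant in every type. Fth1 (chr19:9980598-9985098, plus strand), the heavy chain that oxidises iron on entry, had 1795 CPM in MG and 1609.5 CPM in FB, 1655 CPM in CP-EC, 2292 CPM in vEC, 1226 CPM in aEC and 1173 CPM in capilEC, with 2222 CPM in aSMC, 1532 CPM in vSMC and 1406 CPM in PC. Ftl1 (chr7:45457944-45459884, minus strand), the light chain that helps build the iron core, had 1147 CPM in MG and 766 CPM in FB, 777 CPM in CP-EC, 578 CPM in vEC, 570.1 CPM in aEC and 564 CPM in capilEC, with 323 CPM in aSMC, 541 CPM in vSMC and 591 CPM in PC. Thinned to 100000 reads, 100% of cells of every type had an Fth1 read and 95.1% or more an Ftl1 read. No comparison of either gene reached 4-fold.

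Within that narrow range, Fth1 was highest in vEC and aSMC, with plates at 1856 to 2931 CPM and 2042 to 2908 CPM. These ranges overlapped those of MG (1483 to 2531 CPM) and vSMC (686 to 2985 CPM). The vEC range also overlapped that of PC (1100 to 2035 CPM). Fth1 stood at 2292 CPM in vEC and 1173 CPM in capilEC, a log2 difference of 0.96, with 0.84 to 1.21 on the 4 plates. Relative to aEC the vEC difference was 0.90, with 0.62 to 1.32 by plate. Ftl1 did not show this: 578 CPM in vEC and 564 CPM in capilEC, a difference of 0.04, with -0.24 to 0.16 by plate. In aSMC against PC the chains went opposite ways on all 4 plates, Fth1 by 0.66 (0.51 to 0.92) and Ftl1 by -0.86 (-1.05 to -0.62). In MG, Ftl1 was the higher one, at 1147 CPM in MG and 570.4 CPM in the endothelial mean, a difference of 1.00 (0.76 to 1.20 by plate).

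The ratio of heavy to light chain RNA therefore varied more than either chain, as levels per kilobase of transcript show (929 bases for Fth1 and 968 for Ftl1). The ratio was 1.63 in MG and 2.19 in FB, then 2.22 in CP-EC, 4.13 in vEC, 2.24 in aEC and 2.17 in capilEC, with 7.17 in aSMC, 2.95 in vSMC and 2.48 in PC. The plate ranges of aSMC (5.78 to 8.28) and PC (2.23 to 2.59) were apart, as were those of vEC (3.78 to 4.46) and capilEC (2.06 to 2.33). MG spanned 1.56 to 1.87, below capilEC, and vSMC was spread from 1.58 to 3.97. Dissociation response genes summed to 26005 CPM in MG, 6726 in vEC, 2832 in capilEC, 16868 in aSMC and 5317 in PC. Their part was not tested.

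**Figure D5:**
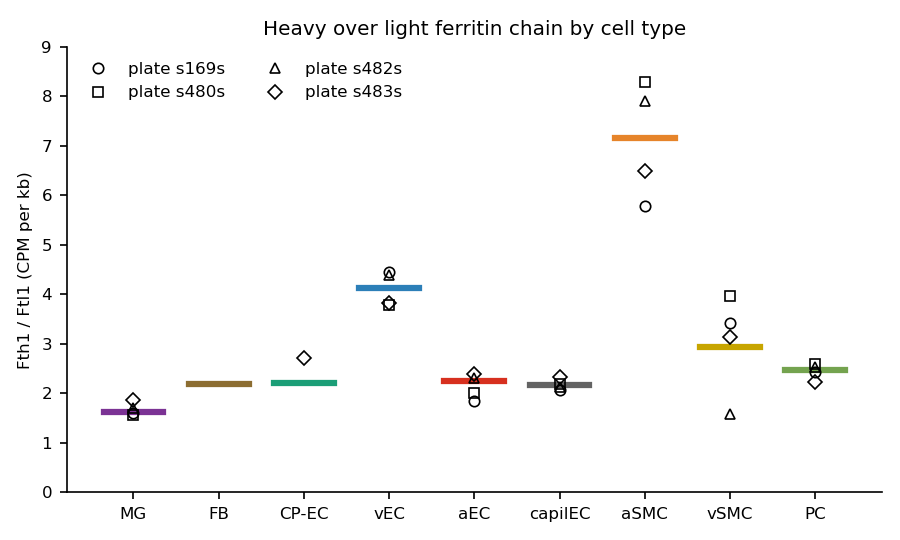
Ratio of Fth1 to Ftl1, each as CPM per kilobase, by type. Bars are all cells and symbols are plates with at least 5 cells of the type. aSMC (7.17) and vEC (4.13) lie above the other types, and MG (1.63) is the lowest.

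Ferritin levels carry a counting limit, since the mouse genome holds processed copies of both genes and the sources used here do not say how reads with several matches were counted. The related rows Ftl2, Fth-ps2 and Fthl17 stayed at or under 7.31 CPM in every type. Overlapping annotation adds to this: all 109 bases of Gm22133 lie inside Ftl1 exons on the same strand, and that row still held 142.6 to 449.8 CPM, so a read over shared exons could enter both rows. Trf shares 2108 exon bases with Gm20425 on the same strand, a row at 1429 CPM in MG and 50.6 CPM in capilEC. The level of Gm20425 followed Trf over cells (Pearson r = 0.98, n = 1235 cells, same reads possible). Reads in the shared bases cannot be told apart, but Gm20425 has 3028 exon bases and held more reads than Trf in 219 cells. Slc11a2 shares 402 exon bases with Gm5475 on the opposite strand, at 2.12 CPM or less.

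The divalent metal transporter Slc11a2 (chr15:100387898-100425072, minus strand), which carries iron out of the endosome, was low everywhere. It had 29.5 CPM in MG and 6.65 CPM in FB, 73.4 CPM in CP-EC, 22.5 CPM in vEC, 28.7 CPM in aEC and 29.8 CPM in capilEC, with 46.5 CPM in aSMC, 29.7 CPM in vSMC and 37.2 CPM in PC. Thinned, between 5.88% (CP-EC) and 22.2% (FB) of cells had a read, and 0% to 12.2% of cells reached 50 CPM. The single highest cell gave 100% of the CP-EC reads, 97.9% in vSMC and 82.2% in PC, so the order of types by this gene rests on single cells. Of neighbours in its order that could be compared by plate, 0 were apart.

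Haem oxygenase, encoded by Hmox1 (chr8:75093621-75100589, plus strand) and induced by haem and oxidative stress, was found in few cells, and those held much of it. It had 106 CPM in MG and 64.1 CPM in FB, 0.30 CPM in CP-EC, 55.9 CPM in vEC, 7.03 CPM in aEC and 22.6 CPM in capilEC, with 0.43 CPM in aSMC, 0.48 CPM in vSMC and 3.27 CPM in PC. In MG, 19 of 137 cells (13.9%, exact binomial 8.56 to 20.8%) reached 50 CPM, the highest at 2136 CPM, with 66.6 to 171 CPM by plate. In capilEC 29 of 787 cells (3.68%) did, and in vEC 4 of 45. The FB level came wholly from 1 cell, and in vEC 2 plates had 163 and 110 CPM while the other 2 had 1.42 and 0.76 CPM. Of the 19 MG cells with Hmox1, 16 also had 50 CPM of Trf and 9 had 50 CPM of Slc40a1. Haem oxygenase is also a gene of border macrophages, whose markers Mrc1, Ms4a7 and F13a1 stood at 35.1, 24.2 and 18.9 CPM in MG. Their part in the Hmox1 level was not tested.

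Between mural types, Trf was the member that met the size rule. Trf stood at 2.75 CPM in aSMC and 173.5 CPM in PC, a log2 difference of -4.53, but plates ranged from -6.24 to -0.13, and of 5 members tested this 1 was lower by the size rule, where 6.28% of genes were. By plate the difference was -0.13 on s169s, -0.30 on s480s, -5.05 on s482s and -6.24 on s483s. A Trf read was found in 50% of PC cells, exactly the rule's minimum, and the median PC cell had 1.17 CPM. Trf did not meet the rule under 4 of the 15 alternatives. Its differences there were -4.88 without plate s169s, -4.05 without plate s482s, -4.24 without the largest cell and -4.40 without cells of another class's markers. Of the 5, 0 were higher in aSMC, where 6.11% of genes were. Tfrc (46.3 CPM in aSMC and 139.5 CPM in PC, -1.50) and Slc40a1 (25.3 and 112 CPM, -1.95) were under 4-fold, and among cells without another class's markers both differences turned, to 1.15 and 0.96. For vSMC over PC 0 of 5 members met the rule, with 1.48% of genes higher and 2.2% lower.

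Levels of different genes can be set side by side only per kilobase. In capilEC, Fth1 had 1262 CPM per kilobase, Ftl1 582, Slc40a1 242, Tfrc 159, Hmox1 14.4, Slc11a2 9.86 and Trf 5.29. In MG the order was Fth1 at 1932 and Ftl1 at 1185, then Trf at 591, with Slc40a1 at 69.7, Hmox1 at 67.5, Slc11a2 at 9.75 and Tfrc at 3.44 CPM per kilobase. Receptor over exporter per kilobase was 0.05 in MG, 0.27 in vEC, 0.54 in aEC and 0.66 in capilEC. The mural ratios were 1.26 for aSMC, 1.42 for vSMC and 0.86 for PC. For CP-EC the ratio was 0.16, and for FB 0.39. The highest cell of each gene gave 50.4% of the Tfrc and 70.4% of the Slc40a1 reads of aSMC. These shares were 59.4% and 62.1% for vSMC, 56.3% and 63.2% for CP-EC, and 87.5% and 89.7% for FB. The 11 PC cells without another class's markers had 4.93 CPM of Tfrc and 14.3 CPM of Slc40a1. The part of single cells in these ratios was not tested.

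Of 88 other iron and haem genes, few differed by 4-fold between types. In the endothelial over the mural mean, 17 were tested, 2 were higher and 0 lower, where 9.25% and 5.82% of all genes were, and the median difference of the 88, tested or not, was 0.06 beside 0.18 for all genes tested. Slc39a8, a metal importer of zinc, manganese and iron, averaged 214 CPM over the endothelial and 22.7 CPM over the mural types, a difference of 2.98, with 2.60 to 4.54 by plate. Abcg2, an efflux pump that accepts porphyrins, averaged 1247 and 230.1 CPM in the same order, a difference of 2.41. In aEC over capilEC 0 of 15 tested were called, and in CP-EC over capilEC 0 of 17.

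Lcn2, a secreted protein that binds iron-laden siderophores, was higher in vEC, and it is also 1 of the 8 venous markers used above to check that label. It stood at 809.8 CPM in vEC and 10.6 CPM in capilEC, and 32 of 45 vEC cells had at least 50 CPM. The difference was 5.71, with 4.60 to 6.53 by plate, and it was the 1 higher of 24 genes tested, where 1.22% of all genes were. It was also the 1 of 24 higher for vEC over aEC, at 7.10, where 1.82% of all genes were.

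Of the export partners and ferroxidases, 3 of 3 tested were lower in MG than in the endothelial mean. Of 18 genes tested in all, 6 were lower and 1 was higher, where 18.4% and 10.8% of all genes were. The median over the 88, tested or not, was -0.15, beside -0.55 for all genes tested. Cp, the ferroxidase that loads exported iron onto transferrin, had 25.8 CPM in MG and 391 CPM in the endothelial mean, a difference of -3.69. Prnp, reported to act as a ferrireductase, had 18.9 CPM in MG and 364 CPM in the endothelial mean, and App, reported to stabilise ferroportin, had 149 and 1199 CPM. Abcg2 was lower too, at 116 CPM in MG. Among regulators, Id1, a target of the BMP pathway, had 42.4 CPM in MG and 826 CPM in the endothelial mean, and Epas1, a hypoxia factor, had 64.2 and 1328 CPM. Lrp1, the receptor for haem bound to haemopexin, was the higher one, with 349 CPM in MG and 2.93 CPM in the endothelial mean, a difference of 5.48.

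FB had 3 of 21 tested genes higher and 4 lower than the endothelial mean, where 9.63% and 16.7% of all genes were. The median over the 88, tested or not, was -0.32 beside -0.15 for all genes tested. Slc7a11, the cystine importer, was the largest at 2351 CPM in FB and 7.08 CPM in the endothelial mean, found at 50 CPM in 7 of 9 FB cells, and Lrp1 (759 and 2.93 CPM) and Por, the reductase that serves haem oxygenase (507 and 114 CPM), were higher as well. Id1, Epas1, Abcg2 and Alas1, the first enzyme of haem synthesis, were lower. In aSMC over PC 2 of 17 were lower: Slc39a8 (2.75 CPM in aSMC and 61.3 CPM in PC) and Cp (92.2 and 533 CPM). The Slc39a8 difference was -0.14 on s169s and -0.17 on s483s, against -4.13 on s480s and -3.44 on s482s. In PC, 3 of 54 cells reached 50 CPM of Slc39a8, and 1 cell gave 41.3% of its reads. In vSMC over PC 1 of 17 was lower, in the same direction on 3 of 4 plates, and 0 were higher in either.

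Genes whose levels over the 9 types were most like each member were ranked by Pearson r of log2(CPM + 5) among 3760 genes, as a description over 9 points that share plates and reads. Tfrc was most like Fn1 (r = 0.96), Igf1r (0.94) and Lef1 (0.94), which were also highest in capilEC. For Slc40a1 the nearest was Slc39a8 (0.93, and 0.89 over 29 type-by-plate values), then Gimap1 (0.91) and Stmn1 (0.90). Trf was nearest to Agmo (0.92), Marcks (0.92) and Lamp2 (0.92), and Ftl1 to Hexa (0.96), Ifngr1 (0.92) and Bmp2k (0.91), whose highest level was in MG. Hmox1, whose FB level came from 1 cell, lay nearest to Ptp4a1 (0.93), Slc1a3 (0.90) and Tmem37 (0.90). Over the 29 values the r of these was 0.33, 0.85 and 0.71, and that of the Trf matches 0.51, 0.63 and 0.59. Fth1 had lower values, with Tra2b (0.81), Slc25a3 (0.81) and Gadd45b (0.80), and the r of Tra2b over the 29 values was 0.08. The matches of Slc11a2, Mgll (0.95), Fndc3b (0.95) and Fez2 (0.94), were highest in CP-EC, where 1 cell held the Slc11a2 reads, and their r over the 29 values was 0.29, 0.09 and 0.09.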

How the data were processed

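The authors deposited raw counts of reads, whole numbers for each gene in each cell and not normalized, and a second table that labels the cells. The submitters' processing notes name SAMtools 1.16.1, featureCounts and Subread 1.4.6-p5, and the builds GRCm38 and GRCm39 without a role for each. All 1235 cells and 46517 rows were kept, 0 columns were left out, and 0 rows named no gene. No doublet caller was run.

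Counts were summed per type and scaled to CPM; differences are on log2(CPM + 5), which understates those of low genes. The endothelial mean is that of vEC, aEC and capilEC and the mural mean that of aSMC, vSMC and PC. With 1 sample per type no test was made; the size rule (at least 4-fold, 50 CPM, and a read in 50% of cells of the higher group, unthinned) was run on all genes, checked on simulated data, and set beside the share of all genes that met it. Cells were thinned to 100000 reads for shares with a read. The members, the comparisons and the 27 gene lists were chosen with earlier results of these data known. Named were the members, list genes that met the rule in the same direction on every plate with 5 cells of each type (at most 3 per list), and the 3 genes most like each member; other genes are named with markers or overlaps. Per-kilobase levels and hairpins used GENCODE transcripts on GRCm38. Alternatives were TMM factors (edgeR 4.0.16), DESeq2 1.42.0 size factors, a total without mitochondrial and ribosomal RNA, equal weight per cell, pseudocounts of 1 and 20 CPM, no minimums, each plate, the largest cell or cells with markers of another class left out, and cells with at least 150000 reads. Python 3.11.15, numpy 2.4.6, scipy 1.17.1, pandas 2.3.3, matplotlib 3.10.9 and R 4.3.3 were used.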

Additional observations from a re-analysis of the deposited data

How the results depend on the processing

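Under 15 alternatives, 243 of 270 counts of members at least 4-fold apart stayed within 1.5 times of the reported count, which was 0 to 2. The 270 include comparisons with a reported count of 0, such as aEC over capilEC, where the count had only to stay at 0. Of 945 log2 differences of members, 442 moved by more than their counting error, 58 changed sign and 1 called difference reversed. The 945 include the alternatives with no minimum CPM or no minimum share of cells, which cannot change a log2 difference. capilEC stayed highest for Tfrc and Slc40a1, and MG for Ftl1, in 11 of 11 alternatives that change levels; vEC stayed highest for Fth1 in 7. In CP-EC over capilEC, 0 members were higher under TMM factors, equal weight per cell, a pseudocount of 20 CPM, without s480s, without s482s or without the largest cell. In the endothelial over the mural mean, 1 member (Slc40a1) was higher under DESeq2 factors, a pseudocount of 20 CPM or cells with at least 150000 reads, and 1 (Trf) was lower under DESeq2 factors, equal weight, a pseudocount of 1 CPM, without s482s or with at least 150000 reads. In FB over the endothelial mean, 0 were higher and 1 lower without cells of other-class markers, where Trf turned to -0.62. In aSMC over PC, 2 were lower with a pseudocount of 1 CPM, without s482s or with at least 150000 reads, and 0 without s169s or without other-class cells, where Trf still differed by -4.88 and -4.40. In vEC over aEC, 1 (Hmox1) was higher with no minimum share of cells. In vEC over capilEC, 1 (Tfrc) was lower under TMM factors, without s169s or without the largest cell. In vSMC over PC, 1 (Slc40a1) was lower without s483s or without the largest cell. The causes were not tested.

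Over all genes, 45 of 270 counts moved by more than 1.5 times, 18 of them with no minimum share of cells. The reported counts and those that moved were 227 higher and 143 lower for the endothelial over the mural mean (351 to 378, and 494), 17 and 11 for aEC over capilEC (11 to 65, and 23), 35 and 25 for vEC over capilEC (95, and 12 to 81), 67 and 189 for CP-EC over capilEC (124 to 421, and 372 to 756), 54 and 61 for vEC over aEC (148 and 183), 275 and 468 for MG (710 and 779), 279 higher and 16.7% of genes lower for FB (1042 to 1201, and 19.6% to 31.5%), 150 and 154 for aSMC over PC (440 to 450, and 98 to 628) and 33 and 49 for vSMC over PC (21 to 416, and 32 to 533). TMM factors gave 28 higher and 36 lower for vEC over capilEC and 47 and 82 for vEC over aEC, DESeq2 factors gave 100 and 158 for CP-EC over capilEC, and equal weight gave 13 and 13 for aEC over capilEC. Scaling moved the median of all genes by -0.21 to 0.41 on the log2 scale. No paired analysis was possible because each type is 1 sample and no test was made. FB (9 cells) and CP-EC (17 cells) limit every value given for them.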

Other observations

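Some other iron genes were concentrated in 1 type; they were chosen after their values were seen. Steap4, a metalloreductase, had 353 CPM in PC, where 11 of 54 cells reached 50 CPM, and 23.0 CPM in vSMC and 0.09 CPM in aSMC. Slc46a1, a folate and haem carrier, had 161 CPM in MG, with 24 of 137 cells at 50 CPM, and 25.03 CPM or less in the other types. Hfe2, the hemojuvelin co-receptor of the BMP pathway, had 45.3 CPM in aSMC from 5 of 41 cells and at most 0.06 CPM elsewhere. Scara5, a ferritin receptor, and Bmp6, an iron-sensing ligand, had 382 and 141 CPM in FB, but 1 cell gave 85.1% and 87.3% of those reads.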
